A study of Mus musculus with 8 samples.

Results

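The genes described here encode the actin of smooth muscle and a set of proteins that bind actin filaments, chosen by symbol from the table of counts: Acta2, Tagln, Myl9, Cnn1, Cnn2, Tpm1, Tpm2, Tpm4, Actn1 and Flna. All 10 had a row among the 23284 genes of the table, and 8 of them passed the filter on low counts. They were measured in cells of mouse alveolar organoids, which are lung cells grown as 3-dimensional cultures in matrigel with FNHCAS medium, from mice with an Sftpc-eGFP transgene. In that transgene the control region of the gene for surfactant protein C drives enhanced green fluorescent protein (GFP), so the sort enriches for alveolar type 2 (AT2) cells, the lung cells that make surfactant. Cells of lines SN2285, SN2286, SN2293 and SN2294, 4 organoid lines, were sorted into GFP-positive and GFP-negative cells, with 1 library of polyadenylated RNA per sort and line, 4 per group. The labels name no other allele and no drug treatment, give no age, and do not tie the lines to animals, so p-values measure the spread between these 4 lines. The purpose given for the series was to compare expression between the eGFP+ and the eGFP- cells.

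Contraction of smooth muscle runs on filaments of alpha smooth muscle actin, which myosin pulls once its regulatory light chain is phosphorylated. Tropomyosins lie along actin filaments and calponin and transgelin bind to them, while alpha-actinin and filamin cross-link them. Many of these proteins come in a form that muscle cells carry and in close relatives that almost every cell uses for its cytoskeleton. In the lung the muscle forms are known from airway and vascular smooth muscle, pericytes and myofibroblasts, and many of the genes are targets of serum response factor (SRF), which binds a DNA element called the CArG box.

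Promoter sequences are shown for the member that differed most between the sorts (Acta2) and for both members whose promoter window held a CArG box (Cnn2 and Myl9). They are RefSeq windows of 300 bases on build GRCm38.p6, ending 50 bases after the start of the gene, written 5′ to 3′ on the strand of the gene. Capitals mark a CArG box, a stretch that differs from one by 1 letter, or GGAATG, the core of the element that TEAD factors bind, searched on both strands.

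Acta2, chr19:34255324-34255623, minus strand: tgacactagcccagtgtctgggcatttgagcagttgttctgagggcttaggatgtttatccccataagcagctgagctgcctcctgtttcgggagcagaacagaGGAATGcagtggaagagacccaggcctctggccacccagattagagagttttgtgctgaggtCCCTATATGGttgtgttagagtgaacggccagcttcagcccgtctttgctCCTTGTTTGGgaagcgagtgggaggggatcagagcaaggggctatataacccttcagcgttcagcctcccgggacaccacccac

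Cnn2, chr10:79988350-79988649, plus strand: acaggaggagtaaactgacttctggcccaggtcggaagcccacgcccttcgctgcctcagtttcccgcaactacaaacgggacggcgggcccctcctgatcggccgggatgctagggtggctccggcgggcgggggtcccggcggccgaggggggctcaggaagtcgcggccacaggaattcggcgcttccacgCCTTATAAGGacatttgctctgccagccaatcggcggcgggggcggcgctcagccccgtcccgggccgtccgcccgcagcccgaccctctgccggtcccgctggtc

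Myl9, chr2:156775214-156775513, plus strand: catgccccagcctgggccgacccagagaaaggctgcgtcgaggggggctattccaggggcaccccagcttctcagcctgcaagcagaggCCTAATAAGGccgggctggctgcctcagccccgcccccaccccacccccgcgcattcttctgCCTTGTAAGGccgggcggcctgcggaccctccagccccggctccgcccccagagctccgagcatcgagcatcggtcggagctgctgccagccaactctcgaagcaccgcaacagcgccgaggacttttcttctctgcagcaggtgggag

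The table of windows held 9 of the 10 members, all but Tagln. An exact CArG box stood in 2 of these 9 windows, 56 bases before the start of Cnn2 and 161 bases before that of Myl9, and in 1.63% of all 32851 windows. The Acta2 window held 2 stretches that were 1 letter away from the element, 84 and 34 bases before the start. Such near matches were found in 4 of the 9 windows (Acta2, Myl9, Tpm1 and Flna) and in 19.9% of all windows. GGAATG was present in the windows of Acta2, Tpm1 and Flna, 3 of the 9, against 14.7% of all windows. None of the marked stretches overlapped another. These are matches of letters and not measured binding.

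Total counts were 5910344 in the GFP-negative library of line SN2294 and 11202576 to 16032633 in the other 7 libraries. Levels are given as CPM, counts scaled to library size with a composition factor, and compare libraries for 1 gene, not genes with each other, since no gene length enters. The markers matched the sort labels: 6 AT2 markers summed to 35364 to 40358 CPM in the GFP-positive and 3467 to 5055 CPM in GFP-negative libraries. The 4 markers of alveolar type 1 (AT1) cells summed to 1529 to 2110 against 1312 to 1620 CPM, and the 5 endothelial markers to at most 0.487 CPM in any library. The AT1 markers did not move together, since 2 were called higher and 1 lower in GFP-positive cells at the threshold given below. The shallow GFP-negative library of line SN2294 stood apart in 4 of the 6 leukocyte markers, with 26 counts of Ptprc, 69 of Csf1r, 30 of Itgam and 47 of Tyrobp, where the other 7 libraries had at most 2 counts of any of them. The remaining leukocyte markers, Cd68 and Cd14, were present in every library, so that the list as a whole summed to 279 to 369 CPM in the GFP-positive and 181 to 238 CPM in GFP-negative libraries. In all, 12848 genes were tested and 5231 (40.7%) were called at a false discovery rate (FDR) of 0.05, with 2801 genes (21.8%) lower and 2430 (18.9%) higher in GFP-positive cells.

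The contractile genes divided between the sorts. Acta2 and Tagln were lower in GFP-positive cells, by 9.91-fold and 1.80-fold. Cnn2 and Tpm4 were higher there by 1.96-fold and 1.93-fold, and Tpm1, Flna and Actn1 by 1.24-fold, 1.22-fold and 1.21-fold. Tpm2 was not called, and Myl9 and Cnn1 had too few counts to be tested. Of the 8 members tested, 5 were thus called higher and 2 lower, where 18.9% and 21.8% of all genes tested were. Their median log2 difference was 0.28 against −0.01 over all genes tested. The median size of the change without its sign was 0.58 for them and 0.26 for all genes tested. Acta2 passed the filter through its counts in the GFP-negative libraries alone, so that it could be tested only by being high there. Its place among the members called lower, and among those without overlap, thus follows in part from the filter. The ranges of the 2 sorts did not overlap for 6 of the 8 (Acta2, Cnn2, Tpm1, Tpm4, Actn1 and Flna), as for 39.5% of all genes tested.

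**Figure D1:**
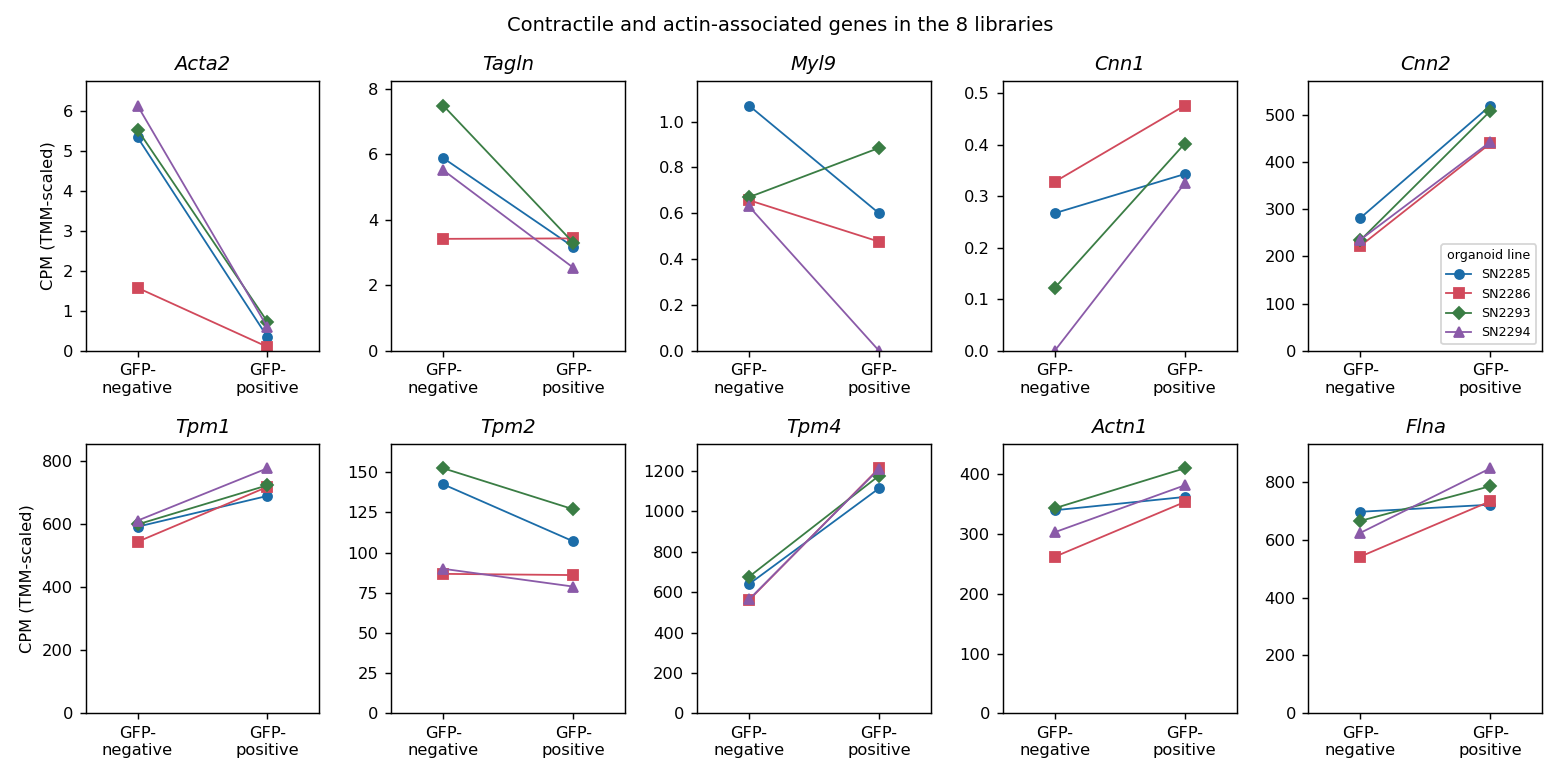
Level of each of the 10 genes (CPM, linear axis from 0, scaled separately per gene) in GFP-negative and GFP-positive cells, with 1 line per organoid line joining its 2 libraries. Acta2 falls in all 4 lines from between 1.58 and 6.14 CPM to under 0.73 CPM, while Cnn2, Tpm1, Tpm4, Actn1 and Flna rise in all 4.

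Acta2 encodes alpha smooth muscle actin, the actin of smooth muscle filaments and a common marker of myofibroblasts. It was rare in all libraries. In the order of lines SN2285, SN2286, SN2293 and SN2294, its raw counts were 4, 1, 9 and 9 in GFP-positive and 80, 24, 91 and 39 in GFP-negative cells. As levels these were 0.343, 0.095, 0.724 and 0.585 CPM against 5.35, 1.58, 5.54 and 6.14 CPM. Every GFP-negative library stood above every GFP-positive one, and within each sort line SN2286 was the lowest. The log2 difference (the fitted log2 fold change of GFP-positive over GFP-negative cells) was −3.31 (SE 0.53, 95% interval −4.47 to −2.15, adjusted p = 3.8e-04, edgeR). It ran from −3.62 to −3.02 when each library was left out in turn, and the call held in every one of these 8 fits. The GFP-negative library of line SN2294, which carried the leukocyte transcripts, had the highest level, and without it the difference was −3.17 (adjusted p = 0.0012). Acta2 shares much of its coding sequence with the other actin genes, so reads may be divided among them and its low counts are uncertain to that extent. In these bulk libraries, fewer cells of a type and less RNA per cell cannot be told apart.

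Tagln encodes transgelin, also called SM22, an actin-binding protein of smooth muscle. In the same order of lines, its levels were 3.17, 3.43, 3.30 and 2.54 CPM among GFP-positive and 5.88, 3.42, 7.49 and 5.51 CPM among GFP-negative libraries. In 3 lines the GFP-negative library stood higher, and in line SN2286 both were level, so that the groups overlapped. The log2 difference was −0.85 (SE 0.25, 95% interval −1.41 to −0.29, adjusted p = 0.019, edgeR). The call was lost without the GFP-positive library of line SN2294 (adjusted p = 0.051) and without the GFP-negative library of line SN2293 (adjusted p = 0.077).

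The remaining genes known best from muscle were near the floor of detection in both sorts. Myl9, a regulatory light chain of smooth muscle and non-muscle myosin, had 7, 5, 11 and 0 counts in GFP-positive and 16, 10, 11 and 4 counts in GFP-negative libraries. The count of 0, in the GFP-positive library of line SN2294, allows a level of up to 0.195 CPM (3 counts, counting error only). Cnn1, the calponin of smooth muscle, had 4, 5, 5 and 5 counts in GFP-positive and 4, 5, 2 and 0 counts in GFP-negative libraries, and the 0, in the shallow GFP-negative library of line SN2294, allows up to 0.473 CPM. The groups overlapped for both genes. Without the low-count filter neither passed the test, with adjusted p = 0.49 for Myl9 and 0.35 for Cnn1 (edgeR, 17668 genes). A difference was not detectable at this depth. Beyond the members, Myh11, the myosin heavy chain that defines differentiated smooth muscle, had 0 to 6 counts in any library.

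Cnn2 and Tpm4 changed by the largest factors among the members that rose. Cnn2 encodes calponin 2, the form found outside smooth muscle, in epithelial and blood cells among others. It stood at 520, 440, 508 and 443 CPM in the GFP-positive and 282, 222, 234 and 235 CPM in GFP-negative libraries. All GFP-positive libraries were well above all GFP-negative ones (log2 difference 0.97, SE 0.09, 95% interval 0.77 to 1.18, adjusted p = 6.4e-06, edgeR). Tpm4 encodes a tropomyosin of the general cytoskeleton. It was at 1113, 1212, 1175 and 1209 CPM in the GFP-positive and 639, 560, 676 and 563 CPM in GFP-negative libraries, again with a wide gap between the groups (log2 difference 0.95, SE 0.08, 95% interval 0.78 to 1.12, adjusted p = 2.3e-06, edgeR). Both calls held under every alternative, with log2 differences of at least 0.82 for Cnn2 and 0.80 for Tpm4.

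Tpm1 encodes a tropomyosin made in muscle and non-muscle forms from 1 gene, which counts per gene do not separate. Its levels were 689, 718, 723 and 777 CPM in the GFP-positive and 592, 544, 599 and 611 CPM in GFP-negative libraries. The gap was narrow, and it was seen in every line (log2 difference 0.31, SE 0.07, 95% interval 0.16 to 0.46, adjusted p = 0.0036, edgeR). The filamin gene Flna, whose product ties actin filaments into networks and to the membrane, was at 720, 733, 785 and 846 CPM against 696, 542, 665 and 623 CPM (log2 difference 0.29, SE 0.09, 95% interval 0.09 to 0.48, adjusted p = 0.023, edgeR). Actn1, the alpha-actinin of stress fibres and focal adhesions, was at 362, 354, 410 and 381 CPM against 340, 262, 343 and 303 CPM (log2 difference 0.27, SE 0.09, 95% interval 0.07 to 0.48, adjusted p = 0.037, edgeR). In line SN2285 both Flna and Actn1 were nearly level between the sorts, at 0.05 and 0.09 on the log2 scale.

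The calls of these 3 genes were not firm. With scaling by library size alone the median of all genes moved from −0.01 to −0.16. The log2 fold changes of Tpm1, Flna and Actn1 were then 0.16, 0.14 and 0.12, and none passed (adjusted p = 0.097, 0.24 and 0.32, edgeR), which left 2 members called higher, Cnn2 and Tpm4. Of all calls, 26.4% were higher in GFP-positive cells under that scaling, in place of 46.5%. Flna and Actn1 also lost their calls without the GFP-positive library of line SN2293 or SN2294 or the GFP-negative library of line SN2286, where adjusted p was 0.054 to 0.060 for Flna and 0.062 to 0.10 for Actn1; Actn1 lost it as well when the GFP-negative library of line SN2294 was left out (adjusted p = 0.072).

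Tpm2, which encodes the beta-tropomyosin of muscle and is also made in fibroblasts, varied by line more than by sort. It stood at 107, 86.0, 127 and 78.9 CPM in the GFP-positive and 142, 86.8, 152 and 89.9 CPM in GFP-negative libraries. Lines SN2285 and SN2293 were high and lines SN2286 and SN2294 low in both sorts, and the groups overlapped. The difference between the sorts did not pass (log2 difference −0.25, SE 0.24, 95% interval −0.79 to 0.30, adjusted p = 0.45, edgeR). With line as a term, which compares the 2 libraries of each line and called 48% of all genes tested, it passed at nearly the same size (log2 difference −0.22, SE 0.07, adjusted p = 0.025), lower in GFP-positive cells in 4 of 4 lines but by only 0.01 in line SN2286. The difference among the lines themselves was tested after these values had been seen. With the sort in the model, Tpm2 differed among the 4 lines (adjusted p = 0.0016, a 1.65-fold range of the line means), and it was the only one of the 8 members called, where 5.32% of all genes tested were. Acta2, with a 3.40-fold range, had an adjusted p = 0.056, and for the other 6 members adjusted p ran from 0.22 to 0.85. The mesothelin gene Msln made up nearly all of the mesothelial list, which summed to 562, 387, 667 and 411 CPM in the GFP-positive and 574, 346, 609 and 402 CPM in GFP-negative libraries, with the same 2 lines high. The other 3 genes of that list, Wt1, Upk3b and Lrrn4, were at or near 0. The pattern was not particular to Msln. Lines SN2285 and SN2293 were also the higher ones in both sorts for Ager and Hopx, which are AT1 markers, and for Notch3 and Fn1. The AT1 marker Pdpn did not share it. Msln and these genes were named after their values were seen. The part of Msln-bearing cells, or of any other cell type, in the level of Tpm2 was not tested.

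The families to which the members belong gave a wider view. Of 16 listed paralogs 13 were tested, 7 were called higher and 2 lower (18.9% and 21.8% of all genes tested), with a median log2 difference of 0.31 against −0.01 over all genes. Among the actins the cytoplasmic genes Actg1 (526 ± 33.2 against 387 ± 33.5 CPM, SD, n = 4 per group; log2 difference 0.44) and Actb (2842 ± 151 against 2297 ± 428 CPM, log2 difference 0.31) rose. The call of Actb (adjusted p = 0.048, edgeR) was lost with scaling by library size alone and in 7 of the 8 fits that left out 1 library. The skeletal muscle actin gene Acta1 was not called (1.24 ± 0.700 against 2.88 ± 3.23 CPM). Its highest level, 7.72 CPM, was again in the GFP-negative library of line SN2294, and with that library left out its log2 difference was −0.05 in place of −1.05.

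Among the other families, the transgelins, alpha-actinins and filamins held genes called in both directions. No tropomyosin, calponin or myosin light chain gene was called lower in the main fit. Tagln2, the transgelin of non-muscle cells, was at 645 ± 16.9 CPM against 418 ± 16.8 CPM (log2 difference 0.63, SE 0.06, adjusted p = 1.0e-05). Tpm3, a further cytoskeletal tropomyosin, was at 376 ± 36.8 against 213 ± 8.58 CPM (log2 difference 0.82, SE 0.08, adjusted p = 7.4e-06). The essential myosin light chain gene Myl6 (log2 difference 0.60), its relative Myl6b (0.95) and the non-muscle alpha-actinin gene Actn4 (0.47) rose too. Both paralogs that fell are known from striated muscle. These were Flnc, at 1.76 ± 0.418 against 10.6 ± 4.01 CPM (log2 difference −2.56, SE 0.31, adjusted p = 3.7e-05), and Actn2, at 0.295 ± 0.136 against 2.00 ± 0.835 CPM (log2 difference −2.72, SE 0.47, adjusted p = 6.4e-04). Actn2 passed the filter through its counts in the GFP-negative libraries alone, so that it could be tested only by being high there. The calponin gene Cnn3 (−0.14, 95% interval −0.32 to 0.03) was not called, and with scaling by library size alone it was called lower. The regulatory light chain genes Myl12a (0.06, 95% interval −0.08 to 0.20) and Myl12b (0.09, 95% interval −0.09 to 0.26) were not called, and they changed sign under that scaling.

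**Figure D2:**
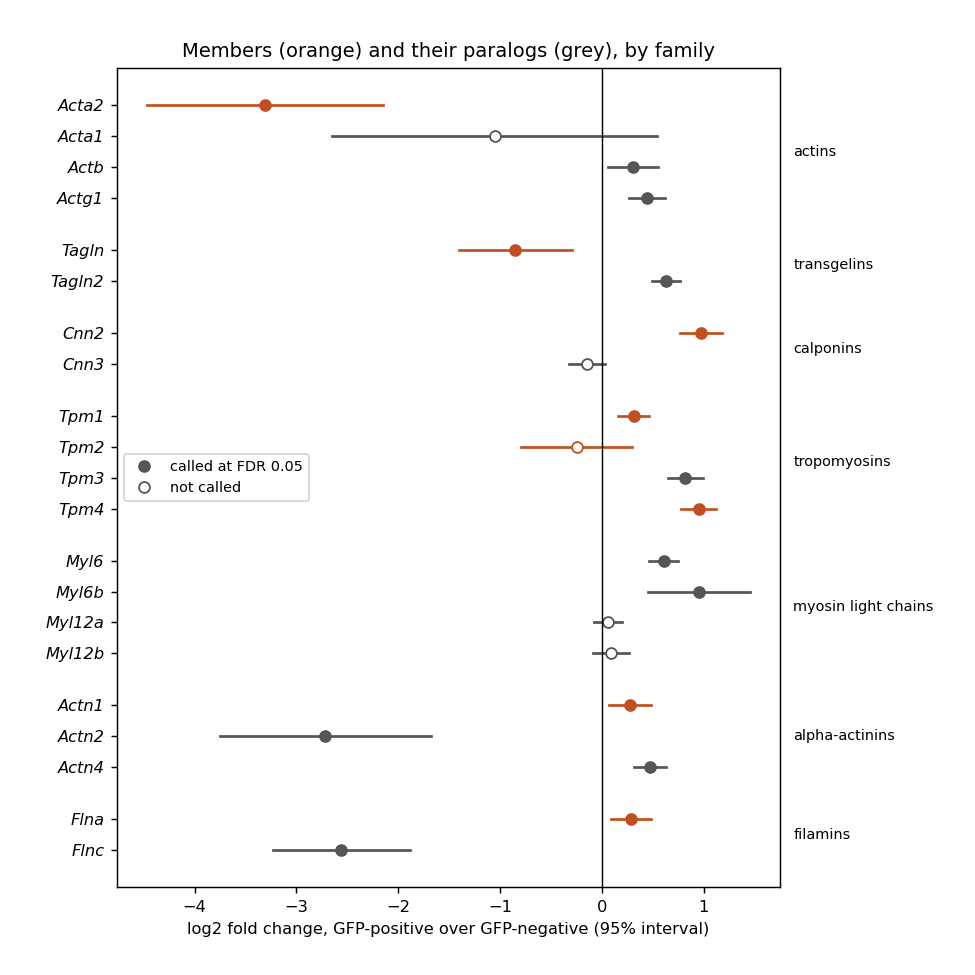
Log2 fold change of GFP-positive over GFP-negative cells for tested members (orange) and their tested paralogs (grey), grouped by family, with 95% intervals; filled points are called at an FDR of 0.05. Acta2 lies at −3.31, Actn2 at −2.72 and Flnc at −2.56, while most other genes lie between 0 and 1.

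Whether relatives differed in their response was tested as the log2 ratio of 2 genes within a library, over 8 pairs, with the exact two-sided permutation test over the 70 divisions of the 8 libraries and Benjamini-Hochberg adjustment over the 8, of which 7 are given. The smallest p these divisions allow is 0.0286. They ignore the pairing of the libraries by line, and a permutation within lines was not run. The ratio of Acta2 to Actb was −12.4 ± 0.752 (log2, SD, n = 4) in GFP-positive and −9.04 ± 0.759 in GFP-negative libraries, a change of −3.33. With at most 9 counts of Acta2 in any GFP-positive library, the size of this change depended on the prior count. It was −3.72 with a prior count of 0.5 in place of 2. The ratio of Tagln to Tagln2 changed by −1.40, that of Tpm2 to Tpm4 by −1.17 and that of Tpm1 to Tpm4 by −0.64. In these 4 pairs the change had the same sign in 4 of 4 lines and exact permutation p = 0.0286 (adjusted p = 0.046). The adjusted p of all 4 rose above the threshold when any GFP-positive library was left out (0.057 to 0.091). It stayed below when any GFP-negative library was (0.046). For pairs at the smallest p, the adjusted p depends on how many of the 8 pairs reach it, the pair not given included. The loss of these calls is therefore no measure of how far the changes moved, with 1 exception. Without the GFP-positive library of line SN2294, Tagln to Tagln2 was no longer at the smallest p. Its adjusted p was then 0.091, against 0.076 for Acta2 to Actb and both tropomyosin pairs (exact permutation). All 4 kept their sign in each of the 8 fits.

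The other 3 pairs were not called. The ratio of Tpm1 to Tpm2 was higher with GFP in 4 of 4 lines, by 0.41 to 0.63, but the lines differed so much in Tpm2 that the groups overlapped (change 0.53, exact permutation p = 0.14, adjusted p = 0.16). Actn1 against Actn4 changed by −0.19 (exact permutation p = 0.086, adjusted p = 0.11). Cnn1 against Cnn2 changed by −0.16 (exact permutation p = 0.69, adjusted p = 0.69), a value set largely by the prior count, since Cnn1 had at most 5 counts.

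**Figure D3:**
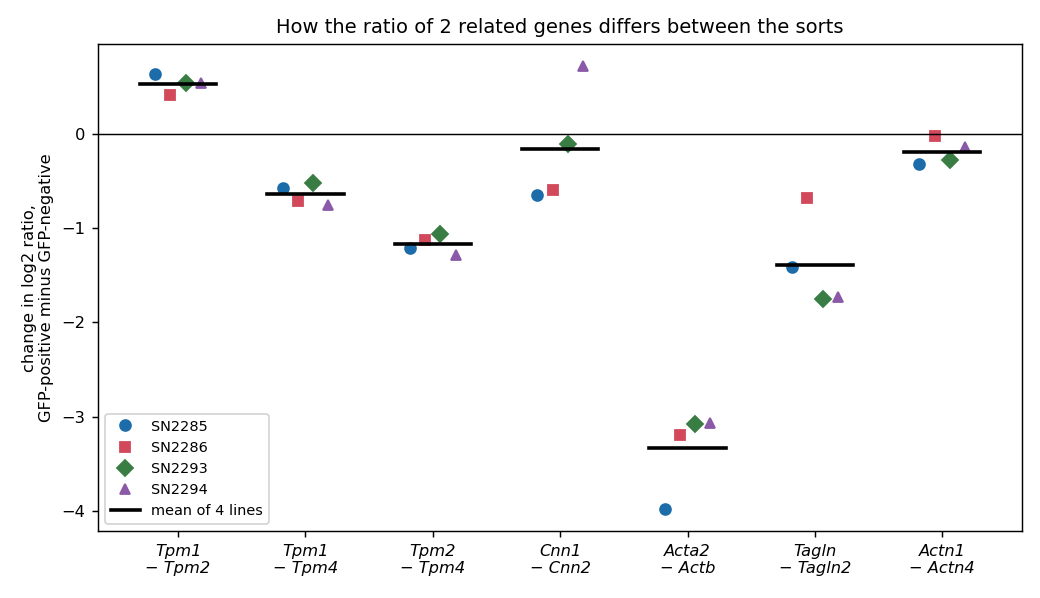
Change in the within-library log2 ratio of 2 related genes, GFP-positive minus GFP-negative, for each of the 4 organoid lines (symbols) and their mean (bar). The 4 lines lie close together for the tropomyosin pairs, and only Cnn1 against Cnn2 has lines on both sides of 0.

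Further genes of smooth muscle were mostly absent or moved in both directions. Of 13 listed, 6 had enough counts to be tested, 2 were called higher and 2 lower, where 18.9% and 21.8% of all genes tested were. Desmin (Des), the intermediate filament of muscle cells, had 4, 0, 1 and 1 counts in GFP-positive and 54, 29, 91 and 76 counts in GFP-negative libraries (log2 difference −5.40, SE 0.81, adjusted p = 3.9e-04; −6.48 with the GFP-positive library of line SN2285 left out, and −4.84 when the SN2294 library of GFP-negative cells was). Des, too, passed the filter through the GFP-negative libraries alone. Smtn, which encodes the cytoskeletal protein smoothelin, was lower as well (9.33 ± 0.696 against 25.1 ± 3.00 CPM, log2 difference −1.43, SE 0.12, adjusted p = 2.5e-06). The myosin light chain kinase gene Mylk went the other way, at 55.2, 55.4, 45.4 and 115 CPM in the GFP-positive and 15.6, 13.9, 19.7 and 28.8 CPM in GFP-negative libraries (log2 difference 1.83, SE 0.37, adjusted p = 0.0055). Synm (1.05) rose as well, but not without the GFP-positive library of line SN2286 (adjusted p = 0.054). The 7 genes not tested included Myh11, Actg2 and Myocd, the coactivator of SRF in smooth muscle.

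Of 9 tested regulators of SRF targets 6 fell and 1 rose, where 21.8% and 18.9% of all genes tested did. The SRF coactivator genes moved apart, with Mkl1 (now Mrtfa) higher (53.0 ± 4.89 against 35.7 ± 1.61 CPM, log2 difference 0.57, SE 0.09, adjusted p = 2.5e-04) and Mkl2 (now Mrtfb) lower (44.2 ± 3.78 against 68.5 ± 7.69 CPM, log2 difference −0.64, SE 0.10, adjusted p = 2.6e-04). The LIM domain genes Fhl1 (−3.29), Fhl2 (−1.62) and Csrp2 (−1.12) fell. Among 16 tested partners in focal adhesions and stress fibres 4 rose and 5 fell, shares near those of all genes tested, with a median log2 difference of 0.01. Pdlim7 (15.3 ± 4.05 against 68.9 ± 1.76 CPM, log2 difference −2.17), Pdlim1 (−1.43) and Lima1 (−0.48) were lower, and the actin-binding gene Lasp1 (905 ± 73.1 against 457 ± 47.8 CPM, log2 difference 0.99) and the talin gene Tln1 (0.57) were higher.

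**Figure D4:**
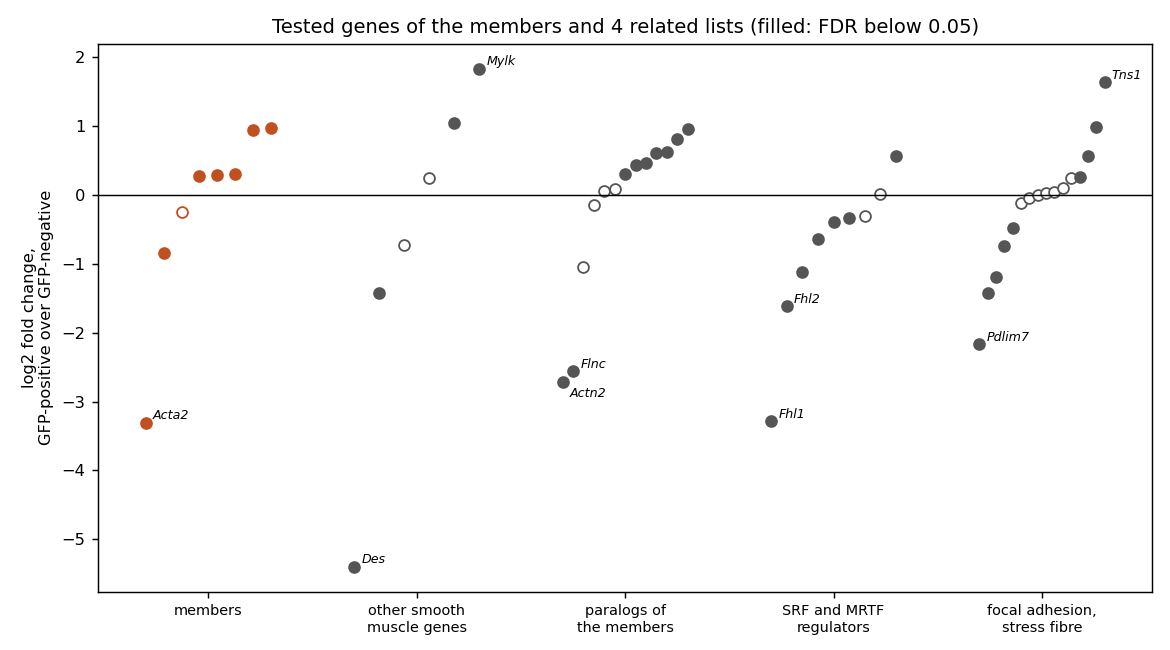
Log2 fold change of GFP-positive over GFP-negative cells for the tested members (orange) and the tested genes of 4 related lists (grey), ordered by size within each list; filled points are called at an FDR of 0.05 and genes beyond 1.5 in size are named. Every list holds genes on both sides of 0, and Des, at −5.40, lies lowest.

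The summed markers of fibroblasts, pericytes and basal cells were lower in GFP-positive cells, while the mesothelial and leukocyte sums were not. The 10 fibroblast markers summed to 367 to 699 CPM in the GFP-positive and 1430 to 2131 CPM in GFP-negative libraries, but the fibronectin gene Fn1 alone made up 353 to 681 and 1048 to 1625 CPM of these sums. The other 9 summed to 11.6 to 19.3 against 382 to 695 CPM. Of the 8 tested, 8 fell, by 1.26 on the log2 scale for Fn1 and by a median of 4.88 over the 8. Of all genes tested 21.8% were called lower, which is the share to set beside this list and the pericyte and basal lists. The 7 pericyte markers summed to 11.6 to 32.9 against 121 to 173 CPM. Notch3 alone made up 6.96 to 27.0 and 85.3 to 135 CPM of these sums. Among the 7, Higd1b was at 0 in every library, Rgs5 had at most 2 counts in any, and the 4 tested fell. The 8 basal and myoepithelial markers summed to 54.3 to 108 against 2029 to 2543 CPM, with the 7 tested lower. In each of these 3 lists 1 gene (Tcf21, Abcc9 and Krt14) was tested only through its counts in the GFP-negative libraries, so that its direction was fixed by the filter. Of the 6 smooth muscle markers, which summed to 0.667 to 2.49 against 3.48 to 14.0 CPM, Des accounted for most counts in the GFP-negative libraries. The leukocyte transcripts seen in the GFP-negative library of line SN2294 did not follow the sort in the other lines. The same library was highest for Acta2 (6.14 CPM), Des and Acta1. It was also highest for Flnc, Actn2 and the fibroblast markers Dcn and Col6a3. The fibroblast markers Col1a1, Col1a2, Col3a1 and Pdgfra were highest in the GFP-negative library of line SN2293. The part of leukocytes or of any other cell type in these levels was not tested.

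Among the GFP-negative libraries, that of line SN2286 was lowest for Acta2 and Tagln. It was also lowest for the fibroblast sum (1430 CPM, with the other 3 at 1736 to 2131), for the pericyte sum (121 CPM, the others at 149 to 173) and for the basal sum (2029 CPM, the others at 2149 to 2543). Single genes of these lists did not all follow the sums. Krt15 (654 CPM), Col1a2 (155 CPM) and Notch3 (85.3 CPM) were lowest in that library. The basal genes Trp63 (203 CPM) and Ngfr (244 CPM) were highest there. Pdgfra (46.1 CPM) and Pdgfrb (21.5 CPM) were lowest in the GFP-negative library of line SN2285. The part of these cell types in the levels of Acta2 and Tagln was not tested.

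**Figure D5:**
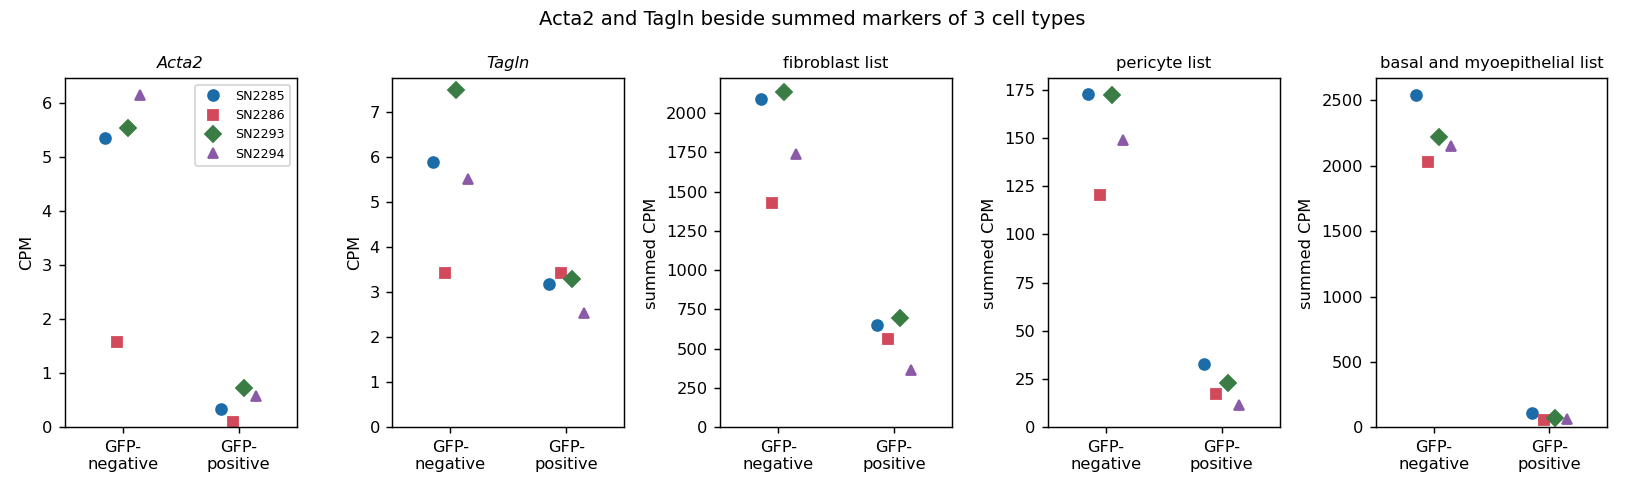
Levels of Acta2 and Tagln (CPM) beside the summed levels (CPM) of the fibroblast, pericyte and basal marker lists in each library; symbols are organoid lines and every axis starts at 0. In GFP-negative cells line SN2286 (square) is lowest in all 5 panels.

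The members also varied with each other. Over the 8 libraries the log2 levels of Cnn2, Tpm1, Tpm4, Actn1 and Flna correlated pairwise at r = 0.81 to 0.96, and Acta2 with Tagln at 0.84, while Acta2 with Tpm4 gave −0.86. These values describe 8 libraries that share the sort and the lines. Members called in the same direction thus correlate through the sort difference itself, and the values are no separate result. By the same measure the genes most like Acta2 among 9860 were Reep5 (0.99), Celsr2 (0.98), Homer3 (0.98), Tchh (0.97) and Wdr85 (0.97), and those most like Tagln were Ppp1r18 (0.95), Plod1 (0.95), Tnfrsf22 (0.95), Bace1 (0.93) and Csnk1g1 (0.93). Each of them was lower on average in GFP-positive libraries, by 0.30 (Wdr85, Plod1) to 1.21 (Celsr2) on the log2 scale.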

How the data were processed

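Raw read counts per gene symbol, 1 column per library and not normalized, were deposited by the authors. Per the submitters' processing notes the tools were cutadapt 1.16, STAR 2.5.3a, featureCounts and Subread, with build mm9; the annotation, strandedness and handling of multi-mapping reads are not stated there, so overlapping, antisense and near-identical genes can share counts. Promoter windows are of build GRCm38.p6 and were matched by symbol only.

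Counts were filtered with filterByExpr (a minimum of 10 depth-scaled counts in 4 libraries and 15 in total; 12848 genes left), scaled by TMM and tested by the two-sided, robust quasi-likelihood method of edgeR 4.0.16 in R 4.3.3, with the sort as the only term. Adjusted p-values are Benjamini-Hochberg over all genes tested, and every adjusted p in the text is from this fit unless another is named. The SE is the log2 difference divided by the square root of F. Log2 levels for ratios and correlations used a prior count of 2.

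The genes and lists were chosen with earlier results of these data known. Named are all 10 members, up to 5 genes per list with the smallest p, tested paralogs, and the 5 genes most correlated with Acta2 and with Tagln at a mean log2 CPM of 3 or more; Myh11, Myocd, Actg2, single markers and genes whose call depended on a setting were named after their values were seen. No list was given a set test. Some genes, 1 list of related genes and 1 ratio are not reported here.

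The libraries are paired by organoid line. With the mean of each sort removed, r across genes was 0.37, 0.46, 0.32 and 0.40 between both libraries of the same line, and at most −0.003 between lines. Tried as alternatives were line as a term, DESeq2 1.42.0, median-of-ratios size factors, library size alone, no low-count filter and leaving out each library; a test among lines was added after seeing the data. The script was tested on simulated data. The reads carry no molecular identifiers and PCR copies cannot be told from molecules, so detection limits cover counting error only.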

Additional observations from a re-analysis of the deposited data

Results flagged for a closer look

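Of the levels of the 10 members and the 7 ratios within each sort, 1 value stood far from the other 3 of its group. Myl9 was at 1.07 CPM in the GFP-negative library of line SN2285, with the other GFP-negative libraries at 0.630 to 0.670 CPM. This rests on 16 counts against 4 to 11. Of 34 groups examined, chance alone flags about 1 in 20.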

How the results depend on the processing

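Over all genes, 4535 to 6169 were called under the alternatives. Adding line as a term (replicate block), the test called 6169, of which 5220 were among the 5231 called without it; Tpm2 gained a call (log2 difference −0.22, adjusted p = 0.025), and no other member changed its call. DESeq2, median-of-ratios factors and the absence of a filter changed no call of a tested member. Library size alone left 2 members called higher. When each library was left out in turn, members called higher were 3 to 5 and members called lower 1 to 2, genes called higher in the list of other smooth muscle genes were 1 to 2 (1 without the GFP-positive library of line SN2286, which lost Synm), and the other counts of the 4 related lists stayed within 1.5 times. The ratio changes ran from −0.68 to −0.59 (Tpm1 to Tpm4), −1.30 to −1.06 (Tpm2 to Tpm4), −3.70 to −3.00 (Acta2 to Actb), −1.59 to −1.26 (Tagln to Tagln2) and −0.47 to 0.10 (Cnn1 to Cnn2). A prior count of 0.5 gave Cnn1 to Cnn2 a change of 0.40, and with at most 5 counts of Cnn1 its direction is not determined. The same prior count gave Acta2 to Actb a change of −3.72 in place of −3.33. The 4 called ratios lost their calls when any 1 GFP-positive library was left out and kept them when any 1 GFP-negative library was. At the smallest p these calls depend on how many of the 8 ratios reach it, the ratio not given included. The cause of the other changes was not tested. Depth limits Acta2, Tagln, Myl9 and Cnn1 most, with at most 123 counts in any library.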
